A study of Mus musculus with 3 samples.

Results

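The Nodal pathway was followed from ligand to nucleus in 10 genes, *Nodal*, *Gdf3*, *Tdgf1*, *Lefty1*, *Lefty2*, *Acvr1b*, *Acvr2a*, *Acvr2b*, *Smad2* and *Foxh1*, out of 23421 genes listed by symbol. The genes were taken by name, and all 10 were found. Embryos of E6.5 were compared in 1 library each of wild type, tw18/+ and tw18/tw18, and all 3 came from matings of tw18/+ mice on the 129/SvEv strain. The study also names non-inbred backgrounds that differ between embryos as a possible reason for the variable mutant phenotype. The tw18 haplotype carries a deletion on Chr 17 that removes *Ppp2r1a*, the gene of the PP2A scaffold subunit PR65alpha, together with many neighbouring genes. The study attributes the embryonic lethal phenotype to the loss of *Ppp2r1a* alone. It rests this on a knockout that did not complement tw18 and on a *Ppp2r1a* transgene that rescued homozygous embryos. No library here carries the loss of *Ppp2r1a* without that of the neighbouring genes. The labels give the tissue as epiblast, whereas the methods describe the embryo proper, epiblast with the visceral endoderm around it. The number of embryos in a library was not given in the sources used here. For its in situ stainings of this day, the study describes the homozygous embryos as slightly younger in stage. The stage of the embryos in the libraries was not given, so a difference in stage cannot be told apart from one of genotype. With 1 library per genotype the spread between embryos is unknown, no test was possible, and a gene is said here to have risen or fallen where its log2 ratio was at least 1 in either direction and the higher FPKM of the pair was at least 1.

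Nodal is a secreted ligand of the TGFβ family that patterns the epiblast and induces the primitive streak. It signals through a complex of type I and type II activin receptors with the co-receptor Cripto, and the activated receptor phosphorylates SMAD2 and SMAD3, which enter the nucleus with SMAD4 and bind target genes together with FOXH1. The Lefty proteins are secreted inhibitors that are themselves induced by the pathway and so close a negative feedback loop. In the epiblast the pathway also maintains transcription of *Nodal* itself.

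In tw18/tw18, the co-receptor gene *Tdgf1* and both Lefty genes fell, while the ligands, the 3 receptors, *Smad2* and *Foxh1* stayed within a 2-fold difference of wild type. *Lefty2* was 9.57 times lower than in wild type, *Tdgf1* 3.89 times and *Lefty1* 2.18 times. The same 3 genes fell against tw18/+, a comparison that uses the same tw18/tw18 library, and none of the 10 rose in tw18/tw18 against either library. Of all 12917 genes with a sufficient FPKM, 6.94% fell and 15.1% rose in tw18/tw18 against wild type, compared with 3 and 0 of the 10 Nodal genes. In numbers these were 896 genes lower and 1946 higher, and the split rested on the scale, with 631 lower and 2493 higher at equal FPKM sums and 407 and 3971 relative to the epiblast markers. Against tw18/+, 5.65% of genes fell and 14.9% rose (726 and 1910 genes), with 472 and 2539 at equal FPKM sums and 293 and 3825 relative to the epiblast markers. Lower in tw18/tw18 against both other genotypes were 3.19% of genes and higher were 10.3%, again compared with 3 and 0 of the 10. Between tw18/+ and wild type, where 5.02% of all genes fell and 4.7% rose, none of the 10 passed the threshold in either direction. RNA from whole tissue does not tell fewer cells of a type from less RNA per cell, and this holds for every difference below.

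**Figure D1:**
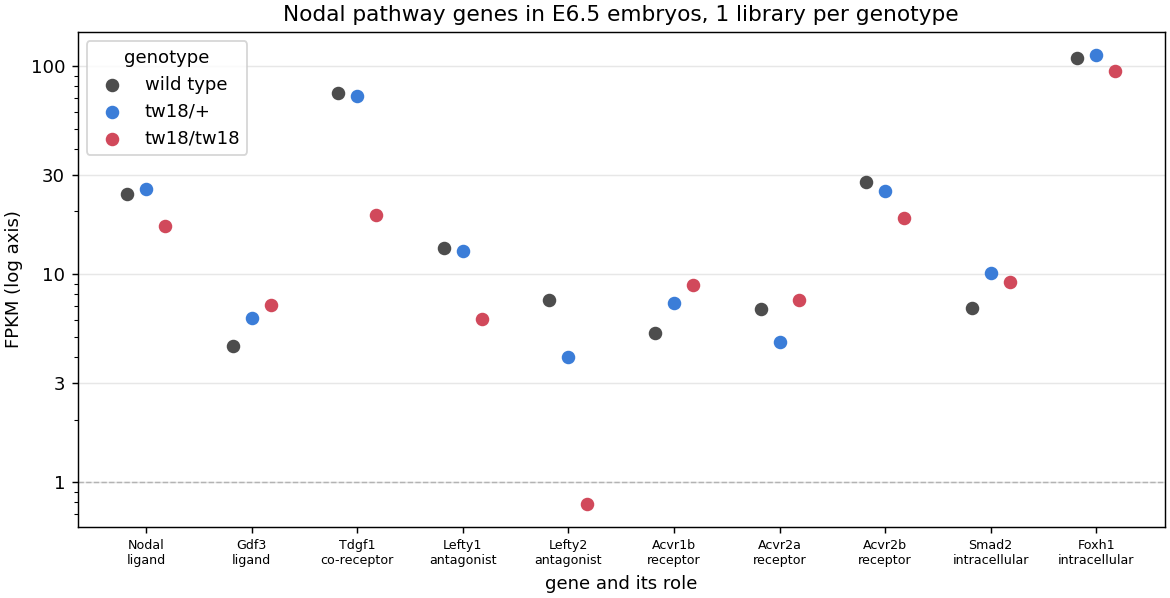
FPKM (log axis) of the 10 Nodal pathway genes by role, with 1 point per library in wild type (grey), tw18/+ (blue) and tw18/tw18 (red), and a dashed line at an FPKM of 1. The tw18/tw18 points of *Tdgf1*, *Lefty1* and *Lefty2* lie apart from the other points of their gene, and *Lefty2* at 0.784 is the lowest of all.

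FPKM is corrected for transcript length and for library depth, and levels of different genes can be compared within a library on this scale. The spacing of low FPKM values gave a depth of about 14.7 M fragments in wild type, 20.9 M in tw18/+ and 20.6 M in tw18/tw18, and from these the counting intervals below were made. They are 95% intervals, cover counting error only and say nothing of the spread between embryos. The FPKM of *Ppp2r1a* went from 146 in wild type to 81.7 in tw18/+ and 12.8 in tw18/tw18. The order is that of the labels, but the library labelled tw18/tw18 was not at 0 for a gene that the deletion removes, and held 8.72% of the wild type level. Where this remaining signal came from was not tested. The summed FPKM of 10 epiblast markers was 1925 in wild type, 2053 in tw18/+ and 1088 in tw18/tw18, and their median log2 ratio in tw18/tw18 against wild type was -0.62. The sum was led by *Pou5f1*, at 628, 721 and 274 FPKM in the same order, and *Dnmt3b*, at 719, 733 and 359. Of the 10 epiblast markers *Pou5f1*, *Sox2* and *Dnmt3b* fell in tw18/tw18 against both other libraries, and none was listed at 0. At equal FPKM sums *Sox2* alone of the 3 fell against wild type and *Pou5f1* alone against tw18/+. *Cdh1* and *Dppa4* were the only epiblast markers with a positive log2 ratio in tw18/tw18 against wild type, at 0.09 and 0.91. *Dppa4* rose against wild type at equal FPKM sums. The 14 visceral endoderm markers summed to 1370, 1342 and 1929 in the same order, with a median log2 ratio in tw18/tw18 of 0.54 against wild type and 0.60 against tw18/+. None passed the threshold against wild type, where equal FPKM sums gave 4, and *Amn*, *Rbp4*, *Gata4* and *Gata6* rose against tw18/+. *Afp* alone of the 14 went the other way, with log2 ratios in tw18/tw18 of -0.83 against wild type and -0.89 against tw18/+. Genes listed as markers of tissues outside the dissected part also moved, and where their RNA came from was not tested. In tw18/tw18 against wild type 10 of 11 tested extra-embryonic ectoderm markers, 8 of 10 decidual and 5 of 8 endothelial markers rose. The study counts *Hand2*, here in the decidual list, and *Eng*, here in the endothelial list, among mesodermal genes higher in the mutant. It names *Bmp2*, also in the decidual list, in its account of BMP signalling. Summed FPKM in the order of the libraries was 33.0, 38.3 and 75.4 for the extra-embryonic ectoderm list, 1617, 280 and 782 for the decidual list, and 42.1, 26.7 and 93.2 for the endothelial list. The decidual sum was led by *Prl8a2*, the 1 marker of these lists that fell in tw18/tw18 against wild type, at 1504 FPKM in wild type, 155 in tw18/+ and 377 in tw18/tw18. Against tw18/+ it rose. No marker of these 3 lists was at 0. The part of tissue composition in the differences described here was not tested. Rescaling to equal FPKM sums would raise every log2 ratio of tw18/tw18 against wild type by 0.21.

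*Tdgf1* encodes Cripto, the membrane-anchored co-receptor that Nodal needs to engage its receptors. Its FPKM was 74.5 in wild type, 72.0 in tw18/+ and 19.2 in tw18/tw18. Wild type and tw18/+ differed by less than their counting error, with a log2 ratio of -0.05 and an interval from -0.13 to 0.04, and only tw18/tw18 was low. The log2 ratio in tw18/tw18 was -1.96 against wild type, with an interval from -2.09 to -1.83, and -1.91 against tw18/+. A fall this large or larger was seen in 2.35% of all genes against wild type and in 1.70% against tw18/+. *Tdgf1* also lay below all 10 epiblast markers in both ratios, by 1.34 on the log2 scale from their median against wild type. Of the 50-base words of its transcript, 12.5% occur in other genes, most of them in the pseudogene *Tdgf1-ps1*, so a part of its fragments may be shared.

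The 250 bases before the start of *Tdgf1*, which fell, and of *Nodal*, which did not pass the threshold, are shown as a description. The sequences are from RefSeq for GRCm38.p6, on the strand of the gene, at chr9:110946159-110946408 (minus strand) for *Tdgf1* and chr10:61417722-61417971 (plus strand) for *Nodal*. Capitals mark matches on either strand to AATNNACA and to CAGAC, which holds the SMAD box, and the 2 motifs share no base in these matches. AATNNACA is a loosened form of the FOXH1 motif with any base at the 2 middle positions, so a match need not fit the full motif.
Tdgf1: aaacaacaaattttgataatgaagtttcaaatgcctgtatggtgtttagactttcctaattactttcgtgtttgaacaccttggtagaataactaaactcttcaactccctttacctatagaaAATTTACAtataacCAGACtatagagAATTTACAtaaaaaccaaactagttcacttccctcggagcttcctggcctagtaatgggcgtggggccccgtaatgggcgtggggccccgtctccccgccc
Nodal: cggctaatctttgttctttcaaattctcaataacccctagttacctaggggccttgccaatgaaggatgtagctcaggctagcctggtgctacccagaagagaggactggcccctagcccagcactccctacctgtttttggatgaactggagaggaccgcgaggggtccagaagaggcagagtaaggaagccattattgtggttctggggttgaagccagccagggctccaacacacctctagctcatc
The *Tdgf1* window held 2 matches to AATNNACA, starting 127 and 101 bases before the start, and 1 match to CAGAC between them at 113 bases. Both matches to AATNNACA read AATTTACA, and their fit to a stricter FOXH1 motif was not tested. The *Nodal* window held neither. Of 32851 promoter windows of this length, 10.9% held AATNNACA and 42.2% held CAGAC. Promoters of 5 of the 10 genes were matched (not *Lefty1*, *Lefty2*, *Gdf3*, *Foxh1* and *Smad2*). Of the other 3 matched, *Acvr2a* and *Acvr2b* each held 1 match to CAGAC and none to AATNNACA, and *Acvr1b* held neither. A match is a description of letters and does not show that a factor binds there. The windows leave out introns and distant sequence, and *Lefty1* and *Lefty2*, the other genes that fell, had none. The pair shown therefore cannot tell genes that fell from those that did not.

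*Lefty1* and *Lefty2* encode secreted inhibitors of Nodal that bind the ligand and its co-receptors. The FPKM of *Lefty2* was 7.50 in wild type, 4.0 in tw18/+ and 0.784 in tw18/tw18, from about 257, 195 and 38 fragments. The 3 libraries were in steps, with tw18/+ between the others. Its log2 ratio was -3.26 in tw18/tw18 against wild type (interval -3.78 to -2.75) and -2.35 against tw18/+ (-2.88 to -1.83). In tw18/+ against wild type it was -0.91 (-1.18 to -0.63), under the threshold but the most negative of the 10 genes in that comparison, and 5.84% of all genes were as low. *Lefty2* was the only member below an FPKM of 1 in any library, and it passed the filter through its level in the other library of each pair.

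Wild type and tw18/+ held *Lefty1* at an FPKM of 13.3 and 12.9 and tw18/tw18 at 6.11, from about 288, 396 and 185 fragments. Only tw18/tw18 was low, and its log2 ratio was -1.12 against wild type (interval -1.40 to -0.85) and -1.07 against tw18/+ (-1.34 to -0.82). These intervals reach across the threshold, and after rescaling to equal FPKM sums neither ratio passed it, at -0.91 and -0.83. Relative to the median of the epiblast markers the ratio against wild type was -0.51, and 2 of the 10 markers fell further than *Lefty1*.

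The Lefty genes lie in tandem on Chr 1, *Lefty2* from 180893108 to 180899103 and *Lefty1* from 180935022 to 180938400 (GRCm38), 35918 bases apart and both on the plus strand. Their coding sequences, 1104 bases each, were identical at 91.8% of bases, and 17.9% of the 50-base words of the *Lefty1* transcript and 11.6% of those of *Lefty2* occur in other genes, mostly in each other. Fragments could therefore have been assigned to the wrong copy. The sum of both genes does not depend on this assignment except through the transcript lengths. It was 20.8 in wild type, 16.9 in tw18/+ and 6.90 in tw18/tw18, a log2 ratio of -1.59 in tw18/tw18 against wild type, -1.29 against tw18/+ and -0.30 in tw18/+ against wild type. The level of *Lefty2* as a fraction of *Lefty1* within a library was 0.563 in wild type (counting interval 0.475 to 0.670), 0.311 in tw18/+ (0.261 to 0.371) and 0.128 in tw18/tw18 (0.0892 to 0.185). The 3 intervals do not overlap, and a ratio within a library is independent of how the libraries are scaled. At these stages *Lefty2* is known from the nascent mesoderm and *Lefty1* from the anterior visceral endoderm.

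*Nodal* encodes the ligand after which the pathway is named, and its level was 24.2 FPKM in wild type, 25.7 in tw18/+ and 17.1 in tw18/tw18. The tw18/tw18 library was the lowest and the other libraries differed by less than counting error, with a log2 ratio of 0.09 and an interval from -0.05 to 0.23. The log2 ratio in tw18/tw18 was -0.50 against wild type (interval -0.66 to -0.35) and -0.59 against tw18/+ (-0.73 to -0.45), values outside counting error and inside the threshold. The first of them was close to the median of the epiblast markers, and relative to that median it changed sign to 0.11. *Nodal* spans 61417972 to 61425338 on Chr 10 in 3 exons, and none of its 50-base words occur in other genes.

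*Gdf3* encodes a related ligand of the family that can act with Nodal through the same co-receptor. It was the lowest of the 10 genes in wild type, with an FPKM of 4.53 there, 6.12 in tw18/+ and 7.10 in tw18/tw18. Wild type was lowest and tw18/tw18 highest, and the log2 ratio was 0.65 in tw18/tw18 against wild type (interval 0.34 to 0.95) and 0.43 in tw18/+ (0.12 to 0.74). The step from tw18/+ to tw18/tw18, 0.21, lay within counting error (-0.03 to 0.46). As a fraction of *Nodal*, *Gdf3* was at 0.187 in wild type, 0.238 in tw18/+ and 0.416 in tw18/tw18, so the balance of the ligands shifted by 1.15 on the log2 scale between wild type and tw18/tw18.

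**Figure D2:**
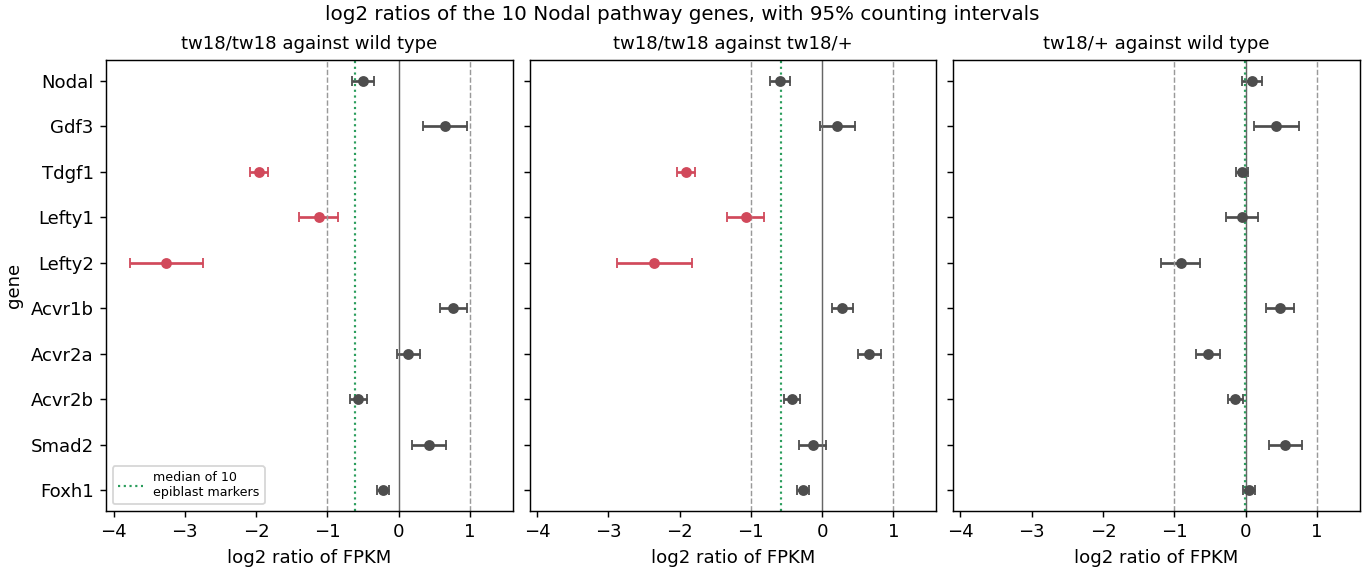
log2 ratios of FPKM (horizontal axis) of the 10 genes in each pair of libraries, with 95% counting intervals as bars, dashed lines at -1 and 1, and a dotted green line at the median of the 10 epiblast markers. Genes past the threshold are red: *Tdgf1*, *Lefty1* and *Lefty2* in both comparisons of tw18/tw18, and none in tw18/+ against wild type.

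The receptors did not pass the threshold in any comparison, and their values were not alike. *Acvr2b*, a type II receptor that binds the ligand, was the highest of the 3 in every library, with an FPKM of 27.6 in wild type, 25.0 in tw18/+ and 18.6 in tw18/tw18. Its log2 ratio was -0.57 in tw18/tw18 against wild type (interval -0.68 to -0.45) and -0.43 against tw18/+ (-0.54 to -0.31). Relative to the epiblast median these became 0.05 and 0.15, so the sign rests on the scaling.

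*Acvr1b* encodes ALK4, the type I receptor kinase that phosphorylates SMAD2 and SMAD3, and measured 5.19 FPKM in wild type, 7.26 in tw18/+ and 8.85 in tw18/tw18. It went the other way from *Acvr2b*, with the lowest value in wild type and the highest in tw18/tw18. The log2 ratio was 0.77 in tw18/tw18 (interval 0.58 to 0.96) and 0.48 in tw18/+ (0.29 to 0.68), both against wild type, and 0.28 between tw18/tw18 and tw18/+ (0.13 to 0.44). Every scaling tried moved both ratios of tw18/tw18 upward, so their sign could not have changed. In all, 19.8% of genes had a ratio as high as *Acvr1b* in tw18/tw18 against wild type.

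*Acvr2a*, the other type II receptor, measured 6.81 FPKM in wild type, 4.73 in tw18/+ and 7.49 in tw18/tw18. Here tw18/+ was the low library, with a log2 ratio of -0.53 against wild type (interval -0.70 to -0.35), whereas tw18/tw18 and wild type differed by less than counting error, at 0.14 (-0.02 to 0.29). Its exons overlap those of *Orc4* on the opposite strand. The library kit keeps strand, but the sources used here do not say whether the counting used it, so fragments of the 2 genes may not be fully separated.

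The balance between the receptors also differed between libraries. *Acvr2b* stood at 5.32 times *Acvr1b* in wild type (interval 4.71 to 6.03), 3.45 times in tw18/+ (3.14 to 3.78) and 2.11 times in tw18/tw18 (1.92 to 2.31), a change of -1.34 on the log2 scale between wild type and tw18/tw18. Over *Acvr2a* it stood at 4.06, 5.29 and 2.49 times in the same order, a change of -0.71 between wild type and tw18/tw18. The first ratio stepped down from wild type to tw18/+ to tw18/tw18, and the second was highest in tw18/+.

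**Figure D3:**
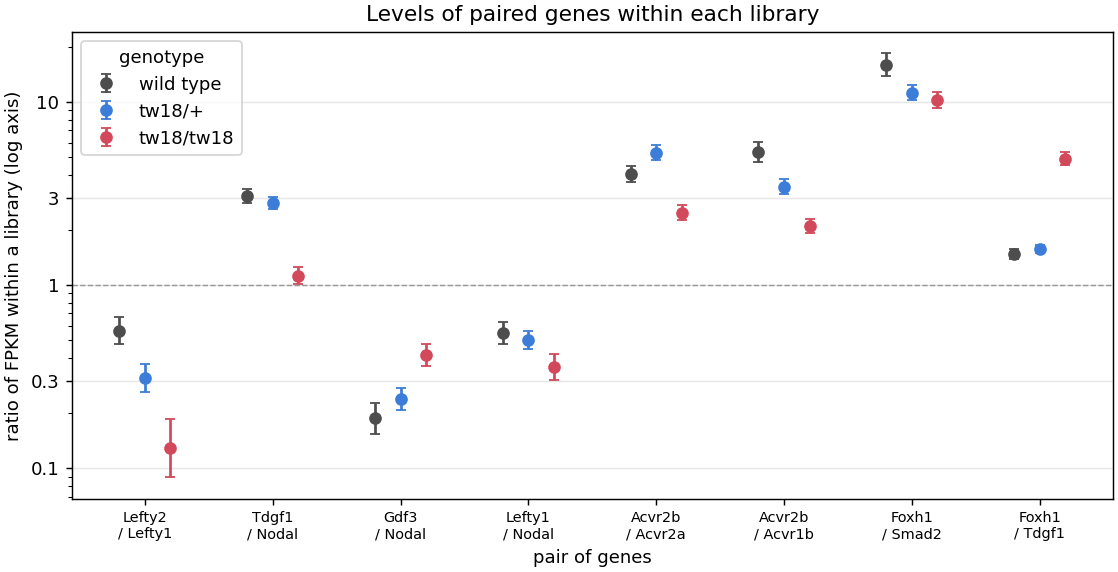
Ratio of FPKM between 2 genes of the pathway within each library (log axis), with 95% counting intervals as bars and a dashed line at equal levels. *Lefty2* over *Lefty1*, *Tdgf1* over *Nodal* and *Acvr2b* over *Acvr1b* were lowest in tw18/tw18, and *Gdf3* over *Nodal* and *Foxh1* over *Tdgf1* were highest there.

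*Foxh1* encodes the forkhead factor that recruits activated SMAD2 and SMAD4 to target genes, and it was the most abundant of the 10 transcripts in every library. Its FPKM was 109.5 in wild type, 113 in tw18/+ and 94.1 in tw18/tw18, higher than about 94.9% of expressed genes in wild type. The 3 libraries were close together, with log2 ratios in tw18/tw18 of -0.22 against wild type (interval -0.31 to -0.13) and -0.27 against tw18/+ (-0.35 to -0.19), and 0.05 in tw18/+ against wild type. Both ratios of tw18/tw18 turned positive relative to the epiblast median, at 0.40 and 0.31. *Foxh1* was 1.47 times as high as *Tdgf1* in wild type, 1.57 times in tw18/+ and 4.91 times in tw18/tw18, while *Tdgf1* over *Nodal* went from 3.08 in wild type and 2.80 in tw18/+ to 1.12.

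*Smad2*, the intracellular transmitter, stood at 6.86 FPKM in wild type, 10.1 in tw18/+ and 9.21 in tw18/tw18. Wild type was the low library. The log2 ratio was 0.55 in tw18/+ (interval 0.33 to 0.79) and 0.42 in tw18/tw18 (0.19 to 0.66), both against wild type, and the libraries with a tw18 chromosome differed by less than counting error, at -0.13 (-0.32 to 0.06). Its annotated coding transcripts with the best support run from 2410 to 8089 bases, so that its fragments, and to a degree its FPKM, depend on the isoform that the reads were assigned to. The intervals used the shortest of these, and a longer one would give more fragments and narrower intervals. Whether the ratio of -0.13 would then still lie within counting error was not tested.

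None of the 10 genes lies on Chr 17, the chromosome of the deletion. Beside *Nodal* on Chr 10 and the Lefty genes on Chr 1, *Tdgf1* (110939603 to 110946158) and *Acvr2b* (119402118 to 119434995) lie on Chr 9, *Foxh1* (76668225 to 76669948) and *Acvr1b* (101174067 to 101213684) on Chr 15, *Gdf3* (122605403 to 122610087) on Chr 6, *Acvr2a* (48814109 to 48903269) on Chr 2 and *Smad2* (76241580 to 76310963) on Chr 18. All positions are those of GENCODE M21 for GRCm38.

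In wild type the order of levels, from high to low, was *Foxh1*, *Tdgf1*, *Acvr2b*, *Nodal*, *Lefty1*, *Lefty2*, *Smad2*, *Acvr2a*, *Acvr1b* and *Gdf3*. Of the 9 pairs of neighbours in this order, 3 did not differ beyond counting error, namely *Lefty2* and *Smad2*, *Smad2* and *Acvr2a*, and *Acvr1b* and *Gdf3*. In tw18/tw18 the first 4 places were the same, but *Tdgf1*, *Acvr2b* and *Nodal* had drawn together at 19.2, 18.6 and 17.1 and could not be separated by neighbour. *Smad2* and *Acvr1b* came next, and *Lefty1* and *Lefty2* took the last places. Whereas *Lefty1* had been 2.94 times as high as *Gdf3* in wild type, their levels in tw18/tw18 differed by less than counting error. For 6 of the 10 genes tw18/+ lay between wild type and tw18/tw18, which was so for 41.2% of all genes, and the differences of *Tdgf1* and *Lefty1* between tw18/+ and wild type were within counting error.

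Over the 10 genes, the median log2 ratio was -0.36 in tw18/tw18 against wild type, with a range from -3.26 to 0.77, compared with -0.01 over all 12917 genes. Against tw18/+ the median was -0.35 compared with 0.01 over all genes. In tw18/+ against wild type it was at 0.00 for both. The median of the 10 genes in tw18/tw18 was thus less negative than that of the epiblast markers, and *Tdgf1* and *Lefty2* were the members that lay below every marker.

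Among 32 other genes of the pathway, 28 had a sufficient FPKM in tw18/tw18 or wild type. In tw18/tw18 3 of these fell, 1 rose and 24 did neither, with a median log2 ratio of -0.11. Only *Gdf1* and *Cer1* passed the threshold against both other libraries. *Gdf1*, which encodes a ligand that acts together with Nodal, went from 9.99 FPKM in wild type to 5.34 in tw18/+ and 1.04 in tw18/tw18, a log2 ratio of -3.26 against wild type and -2.36 against tw18/+. Its levels were in steps like those of *Lefty2*. *Gdf1* shares exons with *Cers1*, listed at 0.00763, 0.288 and 0.705 in the same order, and because fragments of the shared part can go to either gene the ratio of *Gdf1* is uncertain. *Cer1*, a secreted Nodal inhibitor of the anterior visceral endoderm, went the other way from the Lefty genes and rose to 139.5 in tw18/tw18 from 46.6 in wild type and 61.3 in tw18/+.

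Against wild type, *Zfyve9*, which encodes the SMAD anchor SARA, fell as well, with an FPKM of 6.71, 3.63 and 1.99 in the 3 libraries, a log2 ratio of -1.75. Against tw18/+ its ratio was -0.86. *Pcsk6*, a convertase that cleaves the Nodal precursor, fell against wild type too (-1.12 on the log2 scale), but not at equal FPKM sums (-0.91) or relative to the epiblast markers (-0.50), and its ratio against tw18/+ was -0.45. The convertase *Furin* was within the threshold at 0.29 against wild type. The study describes *Furin* and *Pcsk6* as not affected in the mutant. Of the 17 intracellular transmitters and modulators with a sufficient FPKM, *Zfyve9* was the only gene past the threshold, and *Smad3* and *Smad4* had log2 ratios of -0.04 and -0.29. *Acvr1c*, the gene of the type I receptor ALK7, was listed at 0 in all 3 libraries. The co-receptor gene *Cfc1*, a relative of *Tdgf1*, was at 8.16 FPKM in wild type, 12.7 in tw18/+ and 5.58 in tw18/tw18, and fell against tw18/+ (-1.19) but not against wild type (-0.55). The fall against tw18/+ was under the threshold at equal FPKM sums (-0.94) and relative to the epiblast markers (-0.61), where the ratio against wild type turned to 0.07.

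Genes that the pathway regulates were listed separately for the epiblast and streak and for the visceral endoderm. The lists overlap: *Cer1* is a visceral endoderm target and also among the other pathway genes above, and *Otx2* is a visceral endoderm target and also an epiblast marker. Of 9 epiblast and streak targets, 8 fell in tw18/tw18 against wild type and none rose, and the exception was *Lhx1* at 0.19. The median log2 ratio over the 8 genes with a value above 0 was -1.27. *Wnt3* only just passed the threshold at -1.02, and the study treats it as a BMP target and describes it as not significantly dysregulated. *Mixl1*, a homeobox gene of the streak, had a log2 ratio of -2.56, in between *Tdgf1* and *Lefty2*. Against tw18/+, 4 of 8 genes fell, *Gsc*, *Mixl1*, *Fgf8* and *Nanog*. These counts rested in part on the scale, with 5 lower against wild type and 3 against tw18/+ at equal FPKM sums, and 4 and 2 relative to the epiblast markers. *Mixl1* and *Nanog* passed the threshold in both comparisons on all 3 scales. Of 7 visceral endoderm targets, 3 rose in tw18/tw18 against both other libraries, *Cer1*, *Hhex* and *Hesx1*, and none fell. Both other scales raise every ratio of tw18/tw18, so these 3 were bound to pass on them too, and this is no separate check. The study itself had selected some of these genes, and *Tdgf1* and *Lefty2* with them, on the values of the same 3 libraries, and counts that include them are not independent evidence of a direction.

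**Figure D4:**
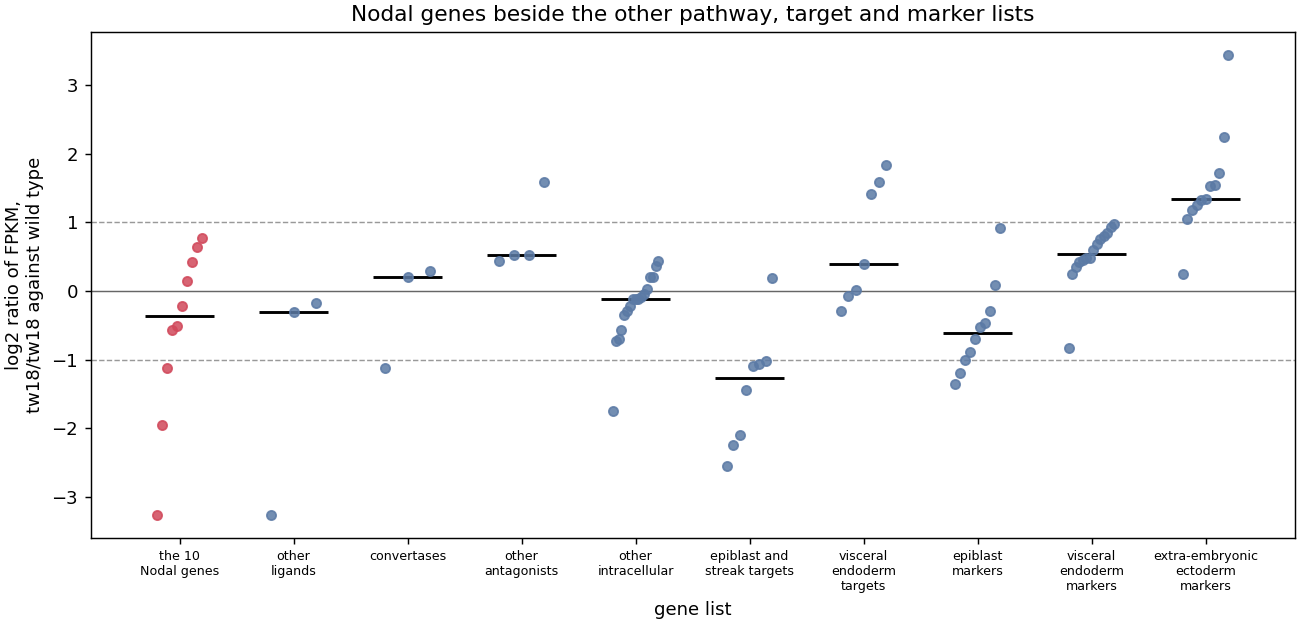
log2 ratio of FPKM in tw18/tw18 against wild type (vertical axis) for the 10 Nodal genes (red) and the other lists (blue), each point a gene whose higher FPKM of the pair was at least 1 and whose lower was above 0, with the median of each list as a bar and dashed lines at -1 and 1. The 10 genes span -3.26 to 0.77, most epiblast and streak targets lie below -1, and the extra-embryonic ectoderm markers lie above 0.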

How the data were processed

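Embryos collected at E6.5, freed of their extra-embryonic part, gave 1 TotalScript total RNA library each for wild type, tw18/+ and tw18/tw18. Paired-end reads of 50 bp were mapped by the authors with TopHat on mm10 (GRCm38), and the FPKM values they deposited come from Cuffdiff. The submitters' processing notes name Bowtie 1.0.0 and Cufflinks 2.2.1. The gene annotation and the library normalization were not given in the sources used here. No replicate exists for any genotype, so there was no test.

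Log2 ratios were taken from the deposited FPKM values without a pseudocount. All 3 pairs of libraries were compared. A gene counted as past the threshold at a log2 ratio of at least 1 with an FPKM of at least 1 in the higher library of the pair, and the same rule over all genes gave the background. Genes at 0 in 1 library were counted too if they reached this minimum in the other. The depth was read from the spacing of low FPKM values in 106 to 228 genes with a single annotated transcript, with 150 bases allowed for the fragment, and 76.3% to 80.2% of them lay within 0.2 of a whole fragment. Fragments per gene used the shortest best-supported coding transcript, and counting intervals are exact conditional binomial. PCR copies are not separate molecules, and the intervals do not allow for them. Lists of pathway, target and marker genes were written from general knowledge, and the members and lists were chosen with earlier results of these data known. Of the pathway and target lists, genes past the threshold against both other libraries were to be named, with others where a role needed them, and *Cers1*, *Orc4* and *Tdgf1-ps1* were added after their values or overlaps were seen. Immune cell markers, the other marker list, had 2 of 5 tested genes higher and 1 lower in tw18/tw18 against wild type. Python 3.11.15, numpy 2.4.6, pandas 2.3.3, scipy 1.17.1, biopython 1.88 and matplotlib 3.10.9 were used, and the calls, depth and intervals were tested on simulated data. The alternatives were pseudocounts of 0.1 and 1, centring on the median, equal FPKM sums, scaling to the epiblast markers, an FPKM minimum of 5 or none, and a log2 threshold of 2.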

Additional observations from a re-analysis of the deposited data

How the results depend on the processing

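No paired analysis was possible because each genotype has 1 library, and no library could be left out. The number of the 10 genes that fell in tw18/tw18 was 3 against wild type and 3 against tw18/+. It was 2 against wild type and 2 against tw18/+ after scaling to equal FPKM sums or to the epiblast markers, where *Lefty1* dropped below the threshold. Against tw18/+ it was also 2 with a pseudocount of 1 and 2 with an FPKM minimum of 5. A log2 threshold of 2 left 1 gene, *Lefty2*, in each comparison. Scaling to the epiblast markers put 3 genes past the threshold upward against wild type (*Gdf3*, *Acvr1b* and *Smad2*) and 1 against tw18/+ (*Acvr2a*), where the deposited values gave 0. Under this scaling the ratios of *Nodal*, *Acvr2b* and *Foxh1* against wild type changed sign, as did those of *Acvr2b*, *Foxh1* and *Smad2* against tw18/+. Equal FPKM sums also turned the ratio of *Smad2* against tw18/+. No other sign changed among the 150 recomputed ratios of the 10 genes, of which 115 stayed within the counting interval of the deposited value. These include all ratios of tw18/+ against wild type, which the scalings hardly shift. The 35 outside their interval were all ratios of tw18/tw18. Apart from *Lefty2* with a pseudocount of 1, they came from equal FPKM sums or the epiblast scale. On the epiblast scale every ratio of tw18/tw18 lay outside its interval. In tw18/+ against wild type the count was 0 in both directions in all alternatives run. Over all genes, the number that fell in tw18/tw18 against wild type was 896, and 532 with a pseudocount of 1, 407 on the epiblast scale, 382 with an FPKM minimum of 5, 295 at a threshold of 2 and 1825 without a filter. The number that rose was 1946, and 1227, 3971, 832, 744 and 4072 in the same order. Against tw18/+, 726 genes fell, and in the same order 375, 293, 295, 195 and 2081 under these settings and 472 with equal FPKM sums. The number that rose was 1910, and 1179, 3825, 850, 610 and 3689. In tw18/+ against wild type 624 fell and 584 rose, and 287 and 264 with a pseudocount of 1, 143 and 98 with the higher minimum, 210 and 213 at a threshold of 2 and 1656 and 2636 without a filter. *Lefty2* in tw18/tw18, from about 38 fragments, is the value most limited by depth.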

Other observations

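In tw18/+ against wild type 3 of 29 other pathway genes fell and 1 rose. *Inhba*, which encodes an activin subunit, was at 5.07 FPKM in wild type, 1.70 in tw18/+ and 4.47 in tw18/tw18, and *Pcsk5*, a convertase gene, at 22.2, 6.57 and 25.5. For both genes tw18/+ was the low library and the homozygous and wild type libraries were close to each other, and both genes rose in tw18/tw18 against tw18/+. Among the targets, the mesoderm gene *Mesp1* was at 7.26 in wild type, 0.530 in tw18/+ and listed at 0 in tw18/tw18. *Mesp1* was the only one of the 16 listed targets to fall in tw18/+ against wild type. *Tgif1*, a repressor that binds activated SMAD complexes, was at 89.9, 95.4 and 55.2 FPKM in the 3 libraries, a log2 ratio of -0.70 in tw18/tw18 against wild type, near the median of the epiblast markers at -0.62. *Fst*, the gene of the activin inhibitor follistatin, was at 37.3, 30.2 and 53.5.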
